A study of Mus musculus with 15 samples.

Results

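The chromatin state of protein-coding genes in resting bone marrow-derived macrophages (BMDMs) was described from 2 histone marks, H3K27ac at the start of a gene and H3K36me3 over its body. Both were mapped in wild-type (WT) cells by CUT&RUN, which sequences the DNA that an antibody-guided nuclease cuts free around a chromatin protein. The 4 region lists that defined the states (2 for WT H3K27ac, 2 for WT H3K36me3) belong to a series of 15 samples. WT mice carried floxed H3f3a and H3f3b, the genes that encode the histone variant H3.3, and no Cre. H3.3 conditional knockout (cKO) mice carried the same floxed alleles together with Cre at Lyz2 (LysM), which is active in the myeloid lineage, so that other lineages keep H3.3. The loxP sites flank exon 2 of H3f3a and exons 1 to 4 of H3f3b. H3.3-HA mice carried an HA tag at H3f3b. Donors were young adult male and female mice on a C57BL/6 background, and the labels call replicates biological without naming the animals. Marrow cells of all groups were grown for 6 to 8 days in medium with 20% L929-conditioned medium, a source of macrophage growth factor, and 10% serum, with no stimulus named. The 2 H3K27ac and 2 H3K36me3 lists labelled cKO and the 2 H3.3-HA lists were used as libraries that had no part in defining the states. IgG entered only as background of the authors' region calling, and which of the 5 IgG samples served there is not stated.

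A gene had promoter H3K27ac when regions of both WT H3K27ac libraries lay within 1 kb of the same start site of one of its protein-coding transcripts. It had body H3K36me3 when at least 10% of its length lay under regions of both WT H3K36me3 libraries. Of 21938 protein-coding genes on the assembled chromosomes, the 20807 on autosomes were each given 1 of 4 states, called both, H3K27ac only, H3K36me3 only and neither. The states are presence calls, since the lists carry no height for a region.

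H3K27ac is placed by the acetyltransferases p300 and CBP at active promoters and enhancers. H3K36me3 is placed by SETD2, which travels with elongating RNA polymerase II, and therefore lies over the bodies of transcribed genes and rises toward their ends. Macrophages keep lineage genes under such marks at rest, while many cytokine and chemokine genes are induced when microbial products reach Toll-like receptors.

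Promoters of the same state differed widely in their content of CpG dinucleotides, and 6 macrophage genes were chosen, after their states were known, to show this range. Each sequence gives the 250 bases before the RefSeq start on GRCm38.p6 (the mm10 build), 5′ to 3′ in the direction of the gene, with every CpG in capitals. Lyz2 encodes lysozyme and Ctsd the lysosomal protease cathepsin D, and both genes had both marks with 1 and 27 CpG in the printed bases.

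Lyz2 (chr10:117282273-117282522, - strand): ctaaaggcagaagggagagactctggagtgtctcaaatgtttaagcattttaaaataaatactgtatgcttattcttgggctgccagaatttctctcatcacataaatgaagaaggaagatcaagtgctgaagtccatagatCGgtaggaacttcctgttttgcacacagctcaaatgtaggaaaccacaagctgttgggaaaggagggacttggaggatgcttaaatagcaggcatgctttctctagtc

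Ctsd (chr7:142387828-142388077, - strand): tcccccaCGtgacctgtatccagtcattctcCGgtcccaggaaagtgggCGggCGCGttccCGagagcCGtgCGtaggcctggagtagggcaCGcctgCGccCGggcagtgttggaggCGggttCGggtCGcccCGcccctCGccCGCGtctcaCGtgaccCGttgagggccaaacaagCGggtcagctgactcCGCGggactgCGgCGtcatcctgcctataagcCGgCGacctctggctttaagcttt

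Mpeg1, which encodes the pore-forming protein perforin-2 of phagocytes, was H3K27ac only and held 2 CpG. Mertk, a receptor that takes up apoptotic cells, was H3K36me3 only and held 7 CpG.

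Mpeg1 (chr19:12460520-12460769, + strand): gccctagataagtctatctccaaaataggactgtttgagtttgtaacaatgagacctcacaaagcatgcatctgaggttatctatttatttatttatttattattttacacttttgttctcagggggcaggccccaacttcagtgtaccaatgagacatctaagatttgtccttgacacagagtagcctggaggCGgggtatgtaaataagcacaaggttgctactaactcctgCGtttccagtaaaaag

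Mertk (chr2:128698665-128698914, + strand): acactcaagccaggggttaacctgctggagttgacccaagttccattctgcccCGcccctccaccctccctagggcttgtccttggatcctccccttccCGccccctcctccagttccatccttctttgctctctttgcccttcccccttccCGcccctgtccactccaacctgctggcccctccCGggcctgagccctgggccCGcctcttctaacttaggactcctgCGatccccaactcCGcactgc

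Il1b, the gene of the cytokine interleukin-1β, and Cebpb, a transcription factor of the myeloid lineage, both had neither mark by these rules. The first held 2 CpG and the other 41.

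Il1b (chr2:129371140-129371389, - strand): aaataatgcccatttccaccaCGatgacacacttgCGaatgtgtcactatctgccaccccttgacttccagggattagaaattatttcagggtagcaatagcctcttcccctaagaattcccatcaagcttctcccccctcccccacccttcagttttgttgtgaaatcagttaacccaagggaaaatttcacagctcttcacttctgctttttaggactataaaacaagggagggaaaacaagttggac

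Cebpb (chr2:167688665-167688914, + strand): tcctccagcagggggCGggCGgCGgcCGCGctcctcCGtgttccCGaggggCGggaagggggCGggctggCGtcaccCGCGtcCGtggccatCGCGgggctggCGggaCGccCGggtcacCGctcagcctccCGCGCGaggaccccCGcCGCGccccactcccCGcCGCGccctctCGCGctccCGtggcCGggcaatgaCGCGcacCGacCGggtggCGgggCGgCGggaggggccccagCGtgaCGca

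The 4 WT libraries held between 14027132 and 28366343 tags. Tags in regions made up 24.1% and 21.5% of the H3K27ac libraries and 47.1% and 50.2% of the H3K36me3 libraries. The deeper H3K27ac library, replicate 1 with 28366343 tags, gave promoter H3K27ac at 7913 genes, and replicate 2 with 16444864 tags gave it at 7549 genes. Both libraries called 6755 genes, 77.6% of the genes called by either, and at 6705 of them the 2 regions lay at the same start. H3K36me3 was called at 8321 and 8491 genes and at 8132 genes by both, 93.7% of either. The percent of the body under H3K36me3 differed between replicates by a median of 3.07 percentage points over the 10339 genes with a value above 0 (within-gene SD 5.95, Pearson r = 0.956 across genes, which are not independent replicates). The H3K27ac call was thus the less repeatable part of a state, and 1952 genes (9.38%) had promoter H3K27ac in 1 of the 2 libraries. Whether the difference in depth between the H3K27ac libraries has a part in this was not tested.

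The floxed exons were checked on the transcript of each gene with 4 exons. Exon 2 of H3f3a lay under no region in any of the 10 lists, WT included, and so checks nothing. At H3f3b, exons 2 and 3 lay under no region in any list either. Exon 1 (chr11:116024379-116024504) lay wholly under H3K27ac regions in both libraries labelled cKO, and exon 4 (chr11:116021961-116023535) had 1065 and 1182 of its 1575 bp under H3K27ac and 1070 and 1122 bp under H3K36me3 in them. WT had no H3K27ac region over these exons and H3K36me3 over 645 and 860 bp of exon 4. Taken as they stand, regions over floxed exons go against a complete deletion of H3f3b in the cultures labelled cKO. Regions of 500 bp joined over 1000 bp can, however, reach an exon from sequence beside it. The study reported that H3f3b deletion varied between cKO samples, being complete in some and partial in others. It showed H3.3 depletion in cKO BMDMs by qRT-PCR, RNA-seq and western blot. Every value from the libraries labelled cKO is given with the limit that deletion may be incomplete.

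The first comparison was between the marks themselves. H3K27ac lay in shorter regions than H3K36me3, with a larger share of them at gene starts and a smaller share inside genes, although most regions of both marks lay away from a start. On autosomes the H3K27ac lists held 60742 and 53663 regions with a median width of 803 and 777 bp, and the H3K36me3 lists 48020 and 48194 regions of 1312 and 1346 bp. H3K27ac covered 88.3 and 73.6 Mb and H3K36me3 160 and 167 Mb, so the mark with fewer regions covered more of the genome. Of the H3K27ac regions, 10.6% and 11.7% had their midpoint within 1 kb of a start, against 2.40% and 2.56% of the H3K36me3 regions. Protein-coding genes held 79.8% and 78.8% of the length under H3K27ac and 94.3% and 94.5% of that under H3K36me3. In each of these 5 measures the libraries of one mark did not overlap those of the other. The differences between the means were 9095.5 regions, -82.6 Mb, -539 bp, 8.63 and -15.1 percentage points (H3K27ac minus H3K36me3, 2 libraries each), all larger than the spread between replicates. The two-sided exact permutation p was 0.333 for each, the smallest that 2 against 2 libraries allow. Among regions of at least 1 kb the difference in number reversed to -4449.5. It was 5556 without H3K27ac replicate 1. When each list was cut to the widest regions of the shortest list it was 954. That cut makes the lists equally long before X and Y are left out, so it does not test the difference in number.

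Along the 17031 genes of 5 kb or more, the marks changed places within the body. H3K27ac lay over 17.0% and 16.1% of the bases in the last 500 bp before the start and over 20.6% and 19.3% of the first twentieth of the body, the highest point of its profile, and fell to 6.14% and 4.59% in the last twentieth. H3K36me3 covered 0.769% and 0.807% of the 500 bp before the start, its lowest point, and 1.83% and 1.98% of the first twentieth. It rose to 33.3% and 34.3% in the eighteenth of 20 body bins, and between 4.5 and 5 kb beyond the end it was at 12.7% and 13.0%. The replicate profiles of each mark kept the same shape. Of 56.8 Mb under H3K27ac in both libraries, 20.3% was also under H3K36me3 in both, and of 140 Mb under H3K36me3 in both, 8.24% was under H3K27ac.

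**Figure D1:**
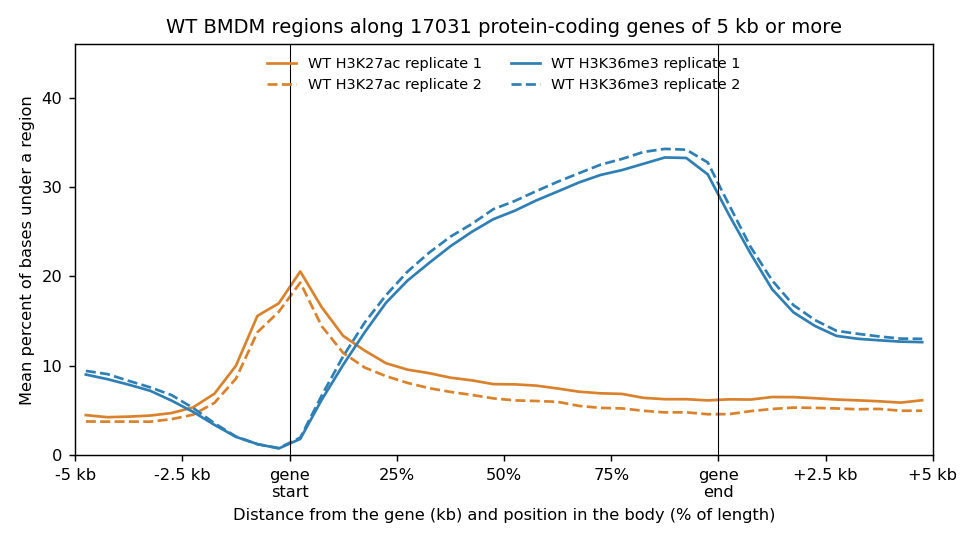
Mean percent of bases under a called region (y axis) for each of the 4 WT libraries across 17031 protein-coding genes of 5 kb or more, with 5 kb on each side in bins of 500 bp and the body in 20 equal bins (x axis). H3K27ac peaks at the start at 20.6% and 19.3%, H3K36me3 is lowest just before the start and highest near the end at 33.3% and 34.3%.

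By gene, 5285 of the 20807 autosomal genes (25.4%) had both marks, 1420 (6.82%) were H3K27ac only, 2538 (12.2%) were H3K36me3 only and 11564 (55.6%) had neither. In all, 32.2% of genes (6705) had promoter H3K27ac and 37.6% (7823) had body H3K36me3. More genes had both marks than had 1 mark alone, but not with an H3K36me3 threshold of 50% (2806 both, 3899 H3K27ac only, 1052 H3K36me3 only) or among regions of at least 1 kb (3561, 831 and 3907). Promoter H3K27ac was found at 67.6% of genes with body H3K36me3 and at 10.9% of genes without it, an odds ratio of 17.0. The share rose with the H3K36me3 coverage of the body, from 7.13% of the 11368 genes with no shared H3K36me3 to 37.7% with coverage above 0 and under 10%, 55.5% from 10 to 25%, 67.0% from 25 to 50%, 72.7% from 50 to 75% and 72.8% of the 1291 genes at 75% or more. The genes nearest to the 10% threshold were Slc25a15 (10.010%), Rpgrip1 (10.013%) and Ckap2 (10.023%) inside it and Hddc3 (9.995%), Slc7a7 (9.973%) and Mast2 (9.960%) outside it.

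Gene length moved with the states and is given beside them. The median gene with both marks was 26321 bp long, against 21293 bp for H3K27ac only, 18209 bp for H3K36me3 only and 12662.5 bp for neither. Of 5 length classes of equal size, the shortest (57 to 5432 bp) had both marks at 9.01% of genes and neither at 74.8%, while the fourth (25319 to 58407 bp) had both at 36.9% and neither at 42.6%. Within the length classes the odds ratio between the marks lay between 10.2 and 19.3. Overlap between genes moved with the states too. Of the genes with H3K36me3 only, 34.3% overlapped another protein-coding gene, against 27.9% with both marks and 15.7% with neither, and a region there cannot be assigned to one of them.

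**Figure D2:**
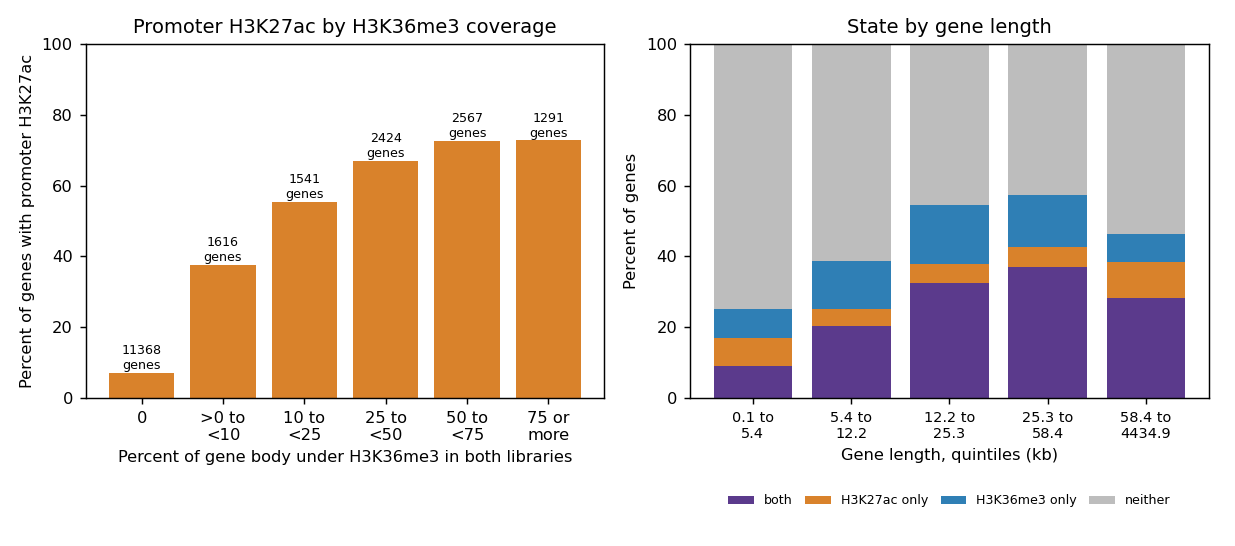
Left, percent of genes with promoter H3K27ac in both WT libraries (y axis) by the percent of the gene body under H3K36me3 in both WT libraries (x axis), with the number of genes above each bar. Right, percent of genes in each state (y axis) in 5 classes of gene length with 4161 or 4162 genes each (x axis, kb), where bars on the left rise from 7.13% to 72.8%, and on the right the share with both marks is lowest in the shortest genes at 9.01%.

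Macrophage genes fell mainly into the state with both marks, which held 25.4% of all genes. Of 14 macrophage transcription factors 8 had both marks, as had 19 of 27 receptors and adaptors and 18 of 24 lysosomal and secreted proteins. Neither mark was found at 3, 2 and 1 of them. The median H3K36me3 coverage of the 3 lists was 58.3%, 57.3% and 57.9%, against 0% over all genes. Where these genes had promoter H3K27ac, the region was long. The median length of the region shared by both libraries at a start was 3493 bp, 4214 bp and 5362 bp in the 3 lists, against 1390 bp over all 6705 genes with promoter H3K27ac. A shared region of 5 kb or more lay at 3 of 9, 10 of 22 and 11 of 21 of their genes with promoter H3K27ac, against 8.47% of those 6705 genes. These lists were written with the macrophage identity of the cells in view. Lists of general cell functions, given below, had both marks at 50.6% to 73.7% of their genes. The share with both marks therefore does not by itself check the labelled cell type.

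Among the transcription factors, Spi1 encodes PU.1, a factor on which macrophage development depends. It lies on the plus strand at chr2:91082390-91115756, and H3K27ac regions filled all 2001 bp around its start in both libraries within a shared region of 10661 bp. H3K36me3 covered 65.7% and 70.8% of its body. Irf5, Fli1, Mitf, Runx1, Pparg and Tfec had the same state, and Tfec the lowest shared H3K36me3 coverage of them, 16.8%. Maf had both marks with H3K36me3 over 88.5% and 86.8% of its body, although H3K27ac reached only 30 and 67 bp into the window around its start. Nr1h3, the oxysterol receptor LXRα, was H3K27ac only, with 1792 and 1658 bp under regions at the start and no H3K36me3 in either library. Irf8 (chr8:120736358-120756694) was H3K36me3 only, with 81.0% and 88.7% of the body covered. Its start carried 1836 bp of H3K27ac in replicate 1 and none in replicate 2. Bhlhe40 was also H3K36me3 only, with no H3K27ac at a start in either library and H3K36me3 over 74.6% and 75.2% of the body. Cebpb and Cebpa, both shorter than 5 kb, had neither mark by these rules.

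Cebpb (chr2:167688915-167690418, plus strand) shows how close to the rule such a gene can lie. In replicate 2 a region ran from 0.42 to 0.921 kb after the start, and in replicate 1 the nearest region began 1.099 kb after it, just outside the window. No H3K36me3 region overlapped the 1504 bp of the gene in either library, although regions lay beyond its end, from 2.975 kb in replicate 1 and 2.123 kb in replicate 2.

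Receptors that define macrophages were mostly in the state with both marks. Adgre1, which encodes F4/80, lies at chr17:57358691-57483527. Its start carried 1103 and 746 bp of H3K27ac, and 70.4% and 69.1% of its body lay under H3K36me3. Itgam (CD11b) carried 1740 and 1631 bp and had 84.2% and 85.3% of its body covered. Both genes met both rules in each library. The longest shared H3K27ac regions of the list were at Itgb2, the common β2 integrin chain (16181 bp), Sirpa, a receptor for CD47 (14360 bp), Msr1, a scavenger receptor (14143 bp), and C5ar1, the receptor for complement C5a (13337 bp). The highest shared H3K36me3 coverage was 91.5% at Fcgr1, a receptor for IgG. Marco, Ccr2 and Itgax were H3K27ac only. At Marco, a scavenger receptor, 758 and 501 bp at the start were under H3K27ac and no H3K36me3 was called. Ccr2, the chemokine receptor of monocytes, had 1516 and 1519 bp of H3K27ac and H3K36me3 over 0% and 5.45% of its body. Itgax (CD11c) had 501 and 765 bp and H3K36me3 over 2.37% and 12.9%. Axl, a receptor for apoptotic cells, and Csf2ra had no region of either mark in these places in any of the 4 libraries.

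Cd14, Mertk and Csf1r were H3K36me3 only, and in each 1 of the 2 H3K27ac libraries had a region at a start. Cd14, the co-receptor for lipopolysaccharide, had 1871 bp in replicate 1, and Mertk 930 bp in replicate 1. Csf1r, the receptor for the growth factor M-CSF, had 1983 bp in replicate 2. Its protein-coding transcripts start between 4.974 and 5.254 kb after the start of the gene record. Both libraries had a long region upstream of there, from -3.118 to 3.713 kb and from -2.952 to 3.5 kb, which the window did not reach. H3K36me3 covered 57.6% and 67.5% of its body.

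Lysosomal and secreted proteins had the longest median shared H3K27ac region of the macrophage lists. The longest single regions measured 15022 bp at Lgals3 (galectin-3), 13699 bp at Ctsb (cathepsin B), 10114 bp at Lyz2 and 8349 bp at Hexa. Shared H3K36me3 coverage was highest at C1qb, a chain of complement C1q (95.4%), Ctss (cathepsin S, 92.9%), Ctsd (87.8%) and Lpl (lipoprotein lipase, 85.8%). At Lyz2 (chr10:117277331-117282321, minus strand) H3K36me3 covered 66.1% and 64.3%. Its neighbour Lyz1 had neither mark, with 501 bp of H3K27ac in replicate 2 and none in replicate 1. Mpeg1, Cd68 and Aif1, genes of 4505, 1941 and 5078 bp, were H3K27ac only. Mpeg1 lay inside a shared H3K27ac region of 7924 bp and no H3K36me3 region was called over it. Cd68 (macrosialin) had 738 and 864 bp of H3K27ac and likewise no H3K36me3, and Aif1 had H3K36me3 over 2.01% and 12.5%. Apoe and Abca1, which carry cholesterol out of macrophages, were H3K36me3 only, with H3K27ac at a start in replicate 2 alone (1002 and 632 bp).

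**Figure D3:**
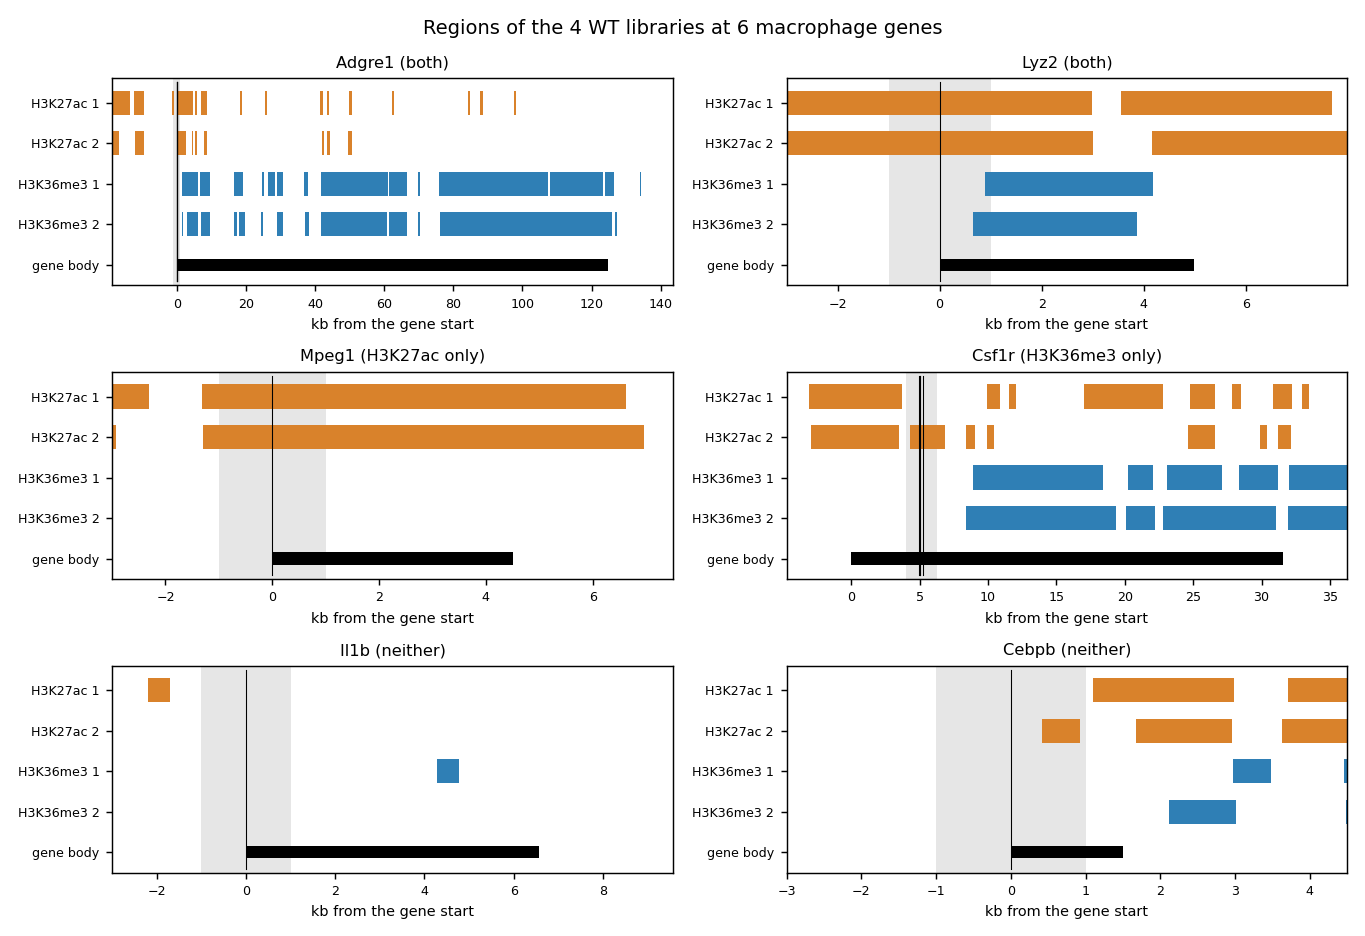
Called regions of the 4 WT libraries at 6 macrophage genes, with distance from the start of the gene record in the direction of transcription (x axis, kb), the gene body in black, starts of protein-coding transcripts as vertical lines and the windows of 1 kb on both sides in grey. Adgre1 and Lyz2 show both marks, Mpeg1 an H3K27ac region from -1.308 to 6.621 kb in replicate 1 with no H3K36me3, Csf1r an H3K27ac region at its starts in replicate 2 alone, and Il1b and Cebpb no mark that meets the rules.

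Of 18 Toll-like receptors and adaptors 13 had both marks (72.2%, against 25.4% of all genes). Of 30 inducible inflammatory genes 4 had both marks (13.3%) and 19 had neither (63.3%), against 25.4% and 55.6% of all genes. In the shortest length class, which holds the median length of the inflammatory list, 9.01% of genes had both marks and 74.8% neither, so the shares of the inflammatory list lay near the background. Tlr4, the receptor for lipopolysaccharide, had 2001 bp of H3K27ac in both libraries and H3K36me3 over 14.9% and 15.5% of its 102701 bp. Tlr1, Tlr2, Tlr6 and Tlr9 and the adaptors Myd88, Tirap, Ticam1 and Ticam2 also had both marks. Tlr11 and Tlr3 were H3K27ac only, Irak4 was H3K36me3 only, and Tlr5 and Tlr12 had neither.

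The inflammatory genes with both marks were Nfkbia, Nfkbiz and Tnfaip3, which restrain or modify NF-κB signalling, and the anti-inflammatory cytokine gene Il10. Tnfaip3 had the longest shared H3K27ac region of the list (7357 bp) and H3K36me3 over 74.2% and 74.8% of its body. The chemokine genes Ccl4, Ccl7 and Cxcl2 and the mRNA decay gene Zfp36 were H3K27ac only. Tnf, Ptgs2 and Ccl2 were H3K36me3 only. Tnf (chr17:35199381-35202007) had H3K36me3 over 36.1% and 43.7% of its body and 653 bp of H3K27ac at its start in replicate 1, with none in replicate 2. Il6, Il12b, Nos2, Cxcl9, Cxcl10, Ifnb1 and 13 further genes had neither. At Il6, Il12b, Nos2 and Ifnb1 no library had H3K27ac at a start or H3K36me3 over the body. H3.3-HA lay at a start of 56.7% and 66.7% of the 30 genes, against 22.4% and 33.4% of all genes, and at 16 of them in both H3.3-HA libraries, Il6 and Il1b among them. These genes were short, with a median of 4222 bp and 16 of 30 under 5 kb, and the part of length in their state was not tested.

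Of 35 interferon-stimulated genes 22 had both marks in these unstimulated WT cells, 6 were H3K27ac only, 3 were H3K36me3 only and 4 had neither, where all genes gave 25.4%, 6.82%, 12.2% and 55.6%. Shared H3K36me3 coverage was 80.7% at Ddx58 (the RNA sensor RIG-I) and 80.0% at Oas2. Isg15, Isg20, Ifit3, Ifit3b, Rtp4 and Gbp2 were H3K27ac only. Stat2, Rsad2 and Eif2ak2 were H3K36me3 only, each with H3K27ac in 1 of the 2 libraries. Ifi44, Ifit2, Oasl1 and Zbp1 had neither. Immediate-early genes, which answer growth factors within minutes, were spread over the states, with 4 of 20 in both, 4 in H3K27ac only, 5 in H3K36me3 only and 7 in neither. Their share with both marks (20.0%) was near that of all genes. Their median length of 4609.5 bp lay in the shortest length class, where 9.01% of genes had both marks and 74.8% neither. The part of length in their state was not tested. Fos had 647 and 634 bp of H3K27ac and H3K36me3 over 64.6% and 65.8% of its body. Egr1, Egr2, Fosb and Nr4a1 were H3K36me3 only with no H3K27ac at a start in either library, and Jun, Junb, Jund and Ier2 had neither mark.

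Genes of general cell functions mostly carried H3K36me3, and they differed in how often H3K27ac was called. Both marks were found at 20 of 29 cell cycle genes, 15 of 21 cholesterol genes, 28 of 38 proteasome genes, 44 of 87 oxidative phosphorylation genes and 40 of 76 cytosolic ribosomal protein genes, from 50.6% to 73.7% of a list against 25.4% of all genes. Mki67, the gene of the proliferation antigen Ki-67, had H3K27ac over 2001 bp in both libraries and H3K36me3 over 24.8% and 40.7% of its body. Body H3K36me3 was found at 67 of 76 ribosomal protein genes (88.2%, against 37.6% of all genes), and 27 of them were H3K36me3 only. Of those 27, 18 had H3K27ac at a start in at least 1 WT library, and 25 had it in both libraries labelled cKO. Of all 2538 H3K36me3-only genes, 1257 had it in at least 1 WT library and 1310 in both libraries labelled cKO. Among 383 genes named Zfp, most of which encode zinc finger proteins, 155 had both marks and 100 were H3K36me3 only, and the coverage reached 100% at Zfp869.

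Replication-coupled histone genes stood apart, as 32 of 67 were H3K27ac only (6.82% of all genes were) and none met the rule for body H3K36me3. They are short, with a median of 539 bp, and 52 of 67 had a start within 2 kb of a start of another gene, so a region can serve several of them. Genes of other tissues and cell types were nearly all without marks. Neither mark, the state of 55.6% of all genes, was found at 1119 of 1128 olfactory receptor genes, at 38 of 39 Hox genes, and at all 11 stromal, 12 neuron and 12 hepatocyte and muscle markers. It was also the state of 13 of 15 neutrophil, 7 of 8 dendritic cell, 13 of 14 T cell, 11 of 12 B cell and 7 of 8 erythroid markers. The exceptions were Mmp8, Cebpe, Xcr1, Ms4a1 and Ank1, which were H3K27ac only, and Cd28, which had both marks with H3K27ac over 2001 bp in both libraries and H3K36me3 over 32.6% and 32.9% of its body. The defining genes S100a8, S100a9, Elane, Cd3e and Flt3 had no H3K27ac at a start in either WT library, and Ctsg had 643 bp in replicate 2 alone. In all, 2 neutrophil, 1 dendritic cell, 1 T cell and 1 B cell marker had H3K27ac in 1 WT library. H3.3-HA lay at a start of 53.3% and 40% of the neutrophil markers, against 22.4% and 33.4% of all genes. Dendritic cell markers (25% and 37.5% of 8 genes) and T cell markers (21.4% and 28.6% of 14 genes) lay near all genes. B cell, erythroid, stromal, neuron and hepatocyte and muscle markers lay below all genes in both H3.3-HA libraries, on lists of 8 to 12 genes.

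**Figure D4:**
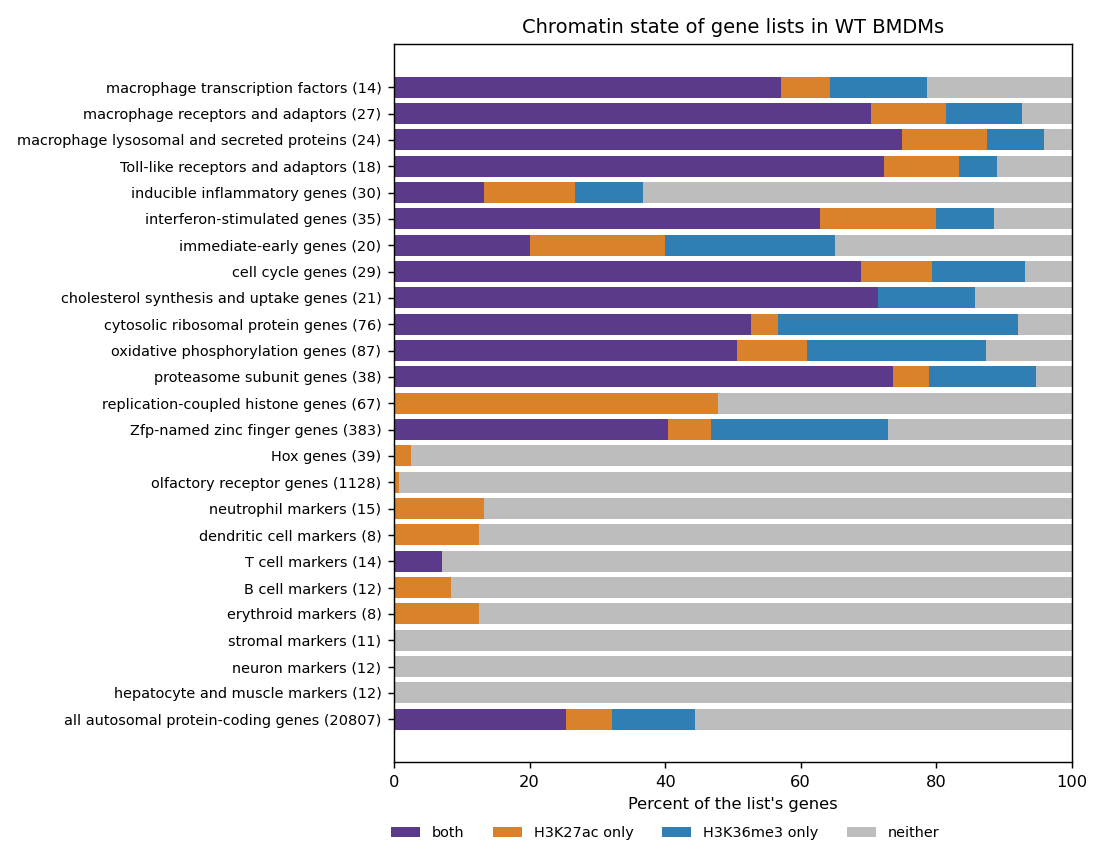
Percent of the genes of each list (x axis) in the 4 states, with the number of genes in brackets and all autosomal protein-coding genes as the lowest bar. Macrophage, Toll-like receptor, interferon-stimulated, cell cycle, cholesterol and proteasome lists have both marks at 57.1% of their genes or more, inducible inflammatory genes at 13.3%, and stromal, neuron and hepatocyte and muscle markers at 0%.

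Within each state the extremes were as follows. Among genes of 10 kb or more with both marks, shared H3K36me3 coverage was highest at Gm12353 (96.9%), Rnf41 (96.5%), Rnf213 (96.4%), Resf1 (96.4%) and Gak (95.4%). Rnf213 encodes a large ubiquitin ligase, and its start carried 2001 bp of H3K27ac in both libraries. The H3K36me3-only genes with the highest coverage were AU041133 (96.5%), Ifnar1 (96.3%), Atp2a2 (95.9%), Gm42715 (94.5%) and AC115631.1 (94.1%). Ifnar1, a chain of the type I interferon receptor, had no H3K27ac at a start in either WT library, and had it in both libraries labelled cKO, as had Atp2a2, the calcium pump SERCA2. The longest shared H3K27ac regions at the start of an H3K27ac-only gene were at B3gnt2 (25627 bp), Lhfpl2 (18323 bp), 4930535I16Rik (17231 bp), Lilr4b (15185 bp) and Celf2 (10992 bp). B3gnt2, Lhfpl2 and Celf2 had shared H3K36me3 over 7.71%, 9.12% and 7.86% of their bodies, below the threshold but above 0. The longest genes with both marks were Nav2, Cdk14, Foxp1, Slc9a9 and Vps13b, of 560070 to 701375 bp. The longest with neither were Fgfr2, Ptprd, Cntnap2, Lsamp and Lrp1b, of 2058379 to 2960900 bp. Fgfr2 had H3K36me3 over 7.55% of its record, which spans other genes, and the other 4 had none.

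The state with H3K36me3 only was examined by H3K27ac library, since a missed region in 1 of the pair is enough to remove a gene from the state with both marks. Of the 2538 genes, 1281 (50.5%) had no H3K27ac at a start in either WT library, 726 (28.6%) had it in replicate 1, 494 (19.5%) in replicate 2, and 37 in both but at different starts. The nearest H3K27ac shared by both libraries lay a median of 11423.5 bp from a start, and within 5 kb at 26.4% of the genes. In the libraries labelled cKO, which had no part in the states, promoter H3K27ac was found at 40.8% and 55.4% of the 1281 genes without it in WT. It was found at 68.6% and 79.9% of those with it in replicate 1 and at 73.3% and 84.0% of those with it in replicate 2. Genes with neither mark and no WT H3K27ac (10819 genes) gave 3.41% and 5.49%, and all genes gave 37.7% and 43.2%. Genes with H3K36me3 and no H3K27ac region in WT therefore had promoter H3K27ac called more often than unmarked genes in both libraries labelled cKO. In replicate 1 their share was close to that of all genes.

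How H3.3 related to the states was asked of the H3.3-HA libraries. H3.3-HA lay within 1 kb of a start at 45.0% and 62.1% of genes with both marks (53.6% ± 12.1, SD, n = 2), at 44.3% and 58.5% of H3K27ac-only genes (51.4% ± 10.0), at 28.3% and 51.9% of H3K36me3-only genes (40.1% ± 16.7) and at 8.08% and 13.2% of genes with neither (10.6% ± 3.60). Genes with neither mark were below each marked state in both libraries. The state with both marks and H3K27ac only differed by less than the spread between the libraries, and the order of the 4 states was the same in each. Of the gene body, H3.3-HA covered 11.4% and 15.6% in the state with both marks and 1.41% and 2.72% with neither. With 2 libraries an exact paired test cannot give a p below 0.5, so none is given. Among macrophage receptors and adaptors H3.3-HA lay at a start of 96.3% and 85.2% of the genes, against 22.4% and 33.4% of all genes.

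Whether a state was seen again in the libraries labelled cKO was asked next, although their lists held regions over floxed exons of H3f3b. Promoter H3K27ac was found in them at 87.5% and 94.3% of genes with both marks in WT (90.9% ± 4.82, SD, n = 2) and at 72.7% and 83.7% of H3K27ac-only genes (78.2% ± 7.77), and at 6.67% and 9.38% of genes with neither. Body H3K36me3 was found at 82.3% and 97.5% of genes with both marks (89.9% ± 10.7), at 67.1% and 91.1% of H3K36me3-only genes (79.1% ± 16.9), and at 0.917% and 3.47% of genes with neither. Over all genes the shares were 37.7% and 43.2% for promoter H3K27ac and 30.3% and 39.5% for body H3K36me3. In each library labelled cKO either mark was therefore found more often where WT cells had both marks than where they had that mark alone. The differences were 12.7 percentage points for H3K27ac and 10.8 for H3K36me3, and their SD between the libraries was 2.95 and 6.24. In WT the median shared H3K27ac region was 1526 bp with both marks and 980 bp with H3K27ac only. Median shared H3K36me3 coverage was 52.5% with both marks and 42.2% with H3K36me3 only. The part of region length and coverage in these differences was not tested. By the same rules 70.0% of genes with both marks, 61.4% of H3K27ac-only genes, 26.8% of H3K36me3-only genes and 93.8% of genes with neither had the same state in the libraries labelled cKO. Of the 2538 H3K36me3-only genes 980 had both marks there, and of the 5285 genes with both, 786 were H3K27ac only there. Impdh1 (a nucleotide synthesis enzyme) and Lpin1 (a lipid synthesis enzyme) had both marks in WT and neither in the libraries labelled cKO. Promoter H3K27ac was missing there in both replicates, but H3K36me3 fell below its threshold in replicate 1 alone. It covered 6.29% and 30.4% of Impdh1 there (36.6% and 36.5% in WT) and 1.996% and 13.2% of Lpin1 (55.5% and 55.1% in WT). Ifi44 had neither in WT and both in the libraries labelled cKO, Adgre1 had both in each, and Cntnap5c had neither in each. The lists labelled cKO were called against another IgG control, and their H3K36me3 replicate 1 had 19.3% of its tags in regions against 46.5% in replicate 2, and the part of either in these shares was not tested.

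**Figure D5:**
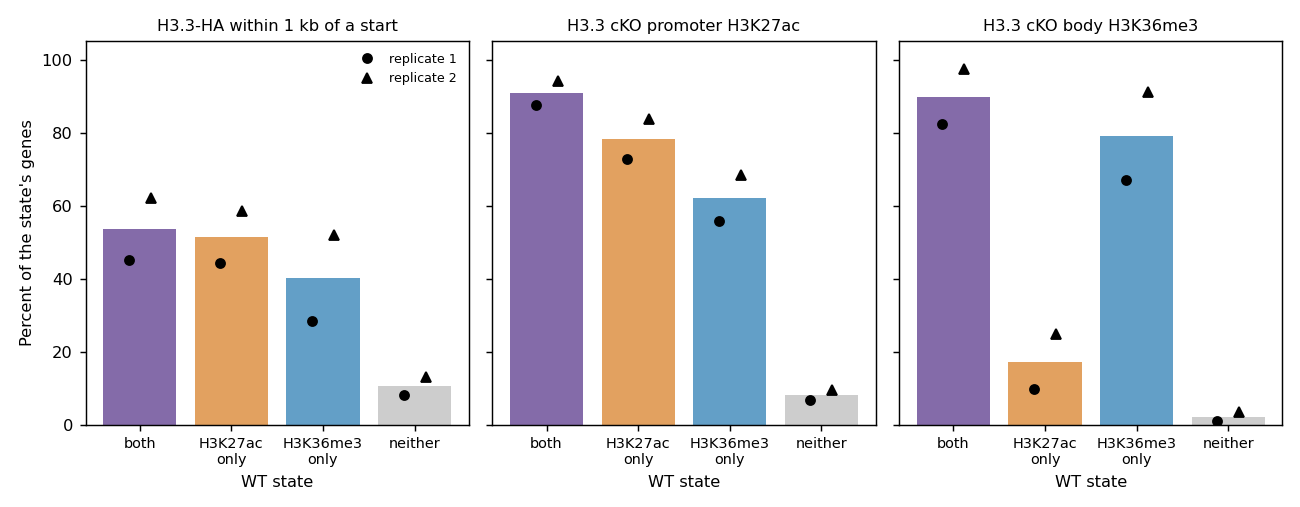
Percent of the genes of each WT state (x axis) with H3.3-HA within 1 kb of a start, and with promoter H3K27ac and body H3K36me3 in the libraries labelled cKO (y axis), as the mean of 2 libraries (bars) and the value of each (circle, replicate 1; triangle, replicate 2). Genes with neither mark lie lowest in all 3 panels, at 10.6%, 8.02% and 2.19%, and replicate 2 lies above replicate 1 for every state.

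Promoter composition differed between the states. It was measured over 300 bases, 250 before and 50 after the start of the gene record on GRCm38.p6, for 20802 genes without undetermined bases. The median observed over expected CpG ratio was 0.772 with both marks, 0.652 with H3K27ac only, 0.761 with H3K36me3 only and 0.309 with neither. Of 9470 promoters at a ratio of 0.6 or more, 40.0% had both marks and 32.9% neither, against 13.2% and 74.5% of the 11332 promoters below 0.6. Macrophage receptors and adaptors, 19 of 27 of them with both marks, had a median ratio of 0.266, and 11.1% of them reached 0.6. The lysosomal and secreted proteins had 0.422 and the inducible inflammatory genes, 19 of 30 of them with neither mark, 0.273. The receptor and inflammatory lists had medians close to each other, and 70.4% and 13.3% of their genes had both marks. The printed promoters were chosen to show the range of CpG content and are no separate result. They ran from Lyz2 with 1 CpG and both marks to Cebpb with 41 CpG and neither.

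Motifs were counted in the same 300 bases on both strands. The letters TATAAA were found in 6.91% of promoters with both marks, 10.8% with H3K27ac only, 6.46% with H3K36me3 only and 17.0% with neither, against 12.7% of all promoters. In the inducible inflammatory list 15 of 30 promoters held them. The PU.1 motif, spelled GAGGAAGT, was found in 3.73%, 4.01%, 2.60% and 3.10% of the 4 states, against 3.26% of all promoters. The letters CCAAT were found in 37.3%, 38.9%, 40.7% and 38.7%, against 38.6%. A match of letters describes the sequence and does not show that a factor binds there.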

How the data were processed

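CUT&RUN libraries of BMDM cultures were mapped to mm10 by the authors with Bowtie 2 after adapter trimming with cutadapt, and each was scanned for regions with HOMER in its histone setting. Per the file headers, HOMER used regions of 500 bp joined over 1000 bp, a 4-fold excess over the matching IgG library and a Poisson p of 0.0001, and replicates were not pooled. The score column, as deposited by the authors, holds a constant value, so region height was not analysed, and only region coordinates were used, as presence or absence. The depth of a library is its total number of tags, a count that its header states beside the tags inside regions. A deeper library can pass a region that a shallower one misses, and no scaling between libraries was possible for presence calls.

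Genes, transcripts and start sites were taken from GENCODE M21. Overlap of 1 bp or more counted as shared, and coverage of a body was the length under regions of both replicates. Coverage profiles used 20 body bins and flanking bins of 500 bp. Groups followed the sample labels. Of 15 samples 10 had a region list, and 5 IgG samples without one were not analysed here. Differences between marks were tested with two-sided exact permutation tests over libraries. Scripts ran in Python 3.11.15 with NumPy 2.4.6 and pandas 2.3.3 and were tested on simulated regions. Promoter composition and motifs were read from the GRCm38.p6 genome, and printed promoters from RefSeq on the same assembly.

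Values are given for the genes the study displayed, for the 4 members of a list with the longest shared H3K27ac region or the highest H3K36me3 coverage, for macrophage genes outside the commonest state of their list, for the 5 most extreme genes of a state (10 kb or more for coverage) and for the 3 genes on each side of the 10% threshold. Other list members with values, H3f3a and H3f3b, the genes mapped and the promoters printed were chosen after their values were seen. The members, gene lists and tests were chosen with earlier results of these data known. Alternatives were the width of the window, the start used, the H3K36me3 threshold, either replicate in place of both, regions of at least 1 kb, lists cut to equal length by width, genes without overlapping neighbours, genes of 5 kb or more, chromosomes X and Y added and leaving out each library. Symbols Clec7a, Cxcl11 and Mx2 were on the lists and matched no gene of the table. Values of some genes that the rule names are not reported here.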

Additional observations from a re-analysis of the deposited data

Results flagged for a closer look

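H3K27ac and H3K36me3 differed in their number of called autosomal regions in opposite directions in the 2 labelled genotypes. In WT the H3K27ac lists held on average 9095.5 more regions than the H3K36me3 lists (60742 and 53663 against 48020 and 48194). In the libraries labelled cKO the difference was -4897.5 regions (34423 and 40714 against 42478 and 42454). In WT both H3K27ac libraries lay above both H3K36me3 libraries, and in those labelled cKO both lay below. The difference between the genotypes was not tested. The share of tags in regions moved with it, at 24.1% and 21.5% for WT H3K27ac against 11.8% and 17.8% for H3K27ac labelled cKO, as did the IgG control, which was one library set for WT and another for cKO, and the part of either was not tested.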

How the results depend on the processing

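Gene counts and differences between marks were taken as kept within 1.5 times the value reported, and percents by state within the SD between libraries. Of the main values 152 were kept, 33 moved and 1 reversed, and of the single percents per state in the H3.3-HA libraries and those labelled cKO 239 were kept and 17 moved. The reversed value was the number of regions, H3K27ac minus H3K36me3, at -4449.5 among regions of at least 1 kb. It was 5556 to 12635 when each library was left out, the lowest without H3K27ac replicate 1. It was 954 at equal list length, but that setting itself makes the lists equally long, X and Y included, and so does not test it. The difference in median width was -1260.5 bp among regions of at least 1 kb, and that in the share of midpoints near a start 4.70 percentage points with a window of 500 bp. With H3K36me3 thresholds of any overlap, 25% and 50%, the H3K27ac-only state held 811, 2275 and 3899 genes and promoter H3K27ac was found at 7.13%, 15.7% and 23.0% of genes without H3K36me3. At 50%, 2806 genes had both marks and 1052 H3K36me3 only. With regions of at least 1 kb, 831 genes were H3K27ac only and 3907 H3K36me3 only, promoter H3K27ac was found at 47.7% of genes with and 6.23% without H3K36me3, and H3.3-HA differed by 27.9 percentage points between both and neither. The setting without overlapping genes takes genes out of every state. The states then held 3350 (both), 796 (H3K27ac only), 1425 (H3K36me3 only) and 9406 genes (neither), and the share without H3K36me3 was 7.80%. With either replicate in place of both, 1689 genes were H3K36me3 only and the share with H3K36me3 was 80.9%. It was 60.6% with the 5′ end of the gene as its start and 59.6% with a window of 500 bp. Leaving out each WT library gave 65.7% to 77.3% with and 9.13% to 14.4% without H3K36me3, the highest both without H3K27ac replicate 2. In the libraries labelled cKO the promoter H3K27ac of both minus H3K27ac only was 15.8 (any overlap), 7.25 (50%), 17.9 (either replicate) and 17.2 percentage points (no overlapping genes), and the body H3K36me3 of both minus H3K36me3 only was 22.4 with either replicate. The cause of these changes was not tested beyond the rule changed. With the replicate number as a replicate block, the WT difference in number of regions was 9095.5 with an exact paired p of 0.5, the smallest that 2 pairs allow. The labels do not say whether same-numbered libraries of the 2 marks came from the same culture. Deviations of H3K27ac and H3K36me3 in same-numbered libraries correlated at r = 0.00627 over 6758 genes. The marks were measured in different ways (bp at a start and percent of the body), so this value cannot decide whether the libraries are paired. A missing region does not show that the mark is absent.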
